A study of Homo sapiens with 4 samples.

Results

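The protein kinases of the RAF, MEK, ERK and RSK cascade and the phosphatases DUSP4 and DUSP6 were followed by Reverse Phase Protein Array (RPPA) in LN229 cells, an established human glioblastoma line, after treatment with salmon calcitonin (sCT), a peptide ligand of the calcitonin receptor. Every antibody whose row name was A-Raf, B-Raf, C-Raf, MEK1, MEK2, ERK1/2 (listed as MAPK or p44-42-MAPK), RSK, p90RSK, DUSP4 or DUSP6 was taken, whether to total protein or to a phosphorylated site. This gave 15 of the 440 antibodies, 6 to phosphorylated sites and 9 to total proteins, and all 15 were measured in all 4 samples. The untreated group held 2 samples labelled 0 min and the sCT group 2 samples given 300 nM sCT over 60 min, with no genetic change stated for either group. Since the untreated samples carry the time 0 min, the effect of sCT and that of a further 60 min in culture cannot be told apart. All values come from 1 cell line at 1 dose and 1 time.

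The cascade carries growth signals from receptors and RAS to the nucleus and the translation machinery. RAF kinases phosphorylate the activation loop of MEK, MEK phosphorylates both a threonine and a tyrosine in the activation loop of ERK, and ERK in turn phosphorylates RSK and transcription factors. The pathway limits itself, because ERK induces phosphatases of the DUSP family that remove the activating phosphates. Cyclic AMP and protein kinase A (PKA), which act downstream of the calcitonin receptor, are known to inhibit C-Raf in many cells, and in some cells they activate ERK through B-Raf. In glioblastoma the cascade is commonly driven by altered receptor tyrosine kinases or by loss of the RAS regulator NF1.

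An RPPA value here is a relative level on a linear scale on which the median antibody of each sample is 1. It compares the 4 samples for one antibody and not one antibody with another. For the same reason the cells could not be checked against glioma markers from these levels, and GFAP, Olig2 and Nestin were not analysed here. Replicates differed little, with a median SD of 0.05 (untreated) and 0.04 (sCT) on the log2 scale over the panel and of 0.04 and 0.06 over the 15 antibodies. Groups were compared on the log2 scale with limma, which pools the spread over antibodies, and adjusted p-values are Benjamini-Hochberg values over all 440. With 2 samples against 2 the smallest two-sided p of an exact permutation test is 0.33, so every call for a single antibody rests on that pooled spread. The series' design text calls the samples biological duplicates and names no separate cultures, so the p-values measure the spread between these samples, which may be technical.

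Much of the panel differed between the groups, and the cascade has to be read against that. Of all antibodies, 55.0% passed an adjusted p of 0.05, 21.4% higher and 33.6% lower after sCT. Of the 15 cascade antibodies, 9 passed, 4 higher and 5 lower, shares close to those of the panel. The sCT and untreated samples did not overlap for 14 of the 15, where 85.9% of the panel did not overlap. A fold change of at least 0.58 log2 units in either direction, together with p under 0.05 before adjustment, was reached by 4 of the 15 and by 21.6% of the panel. By role, 3 of the 6 RAF antibodies fell, 4 of the 5 MEK and ERK antibodies rose, and 2 of the 4 RSK and DUSP antibodies fell. These roles were compared as counts, with no test between them.

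**Figure D1:**
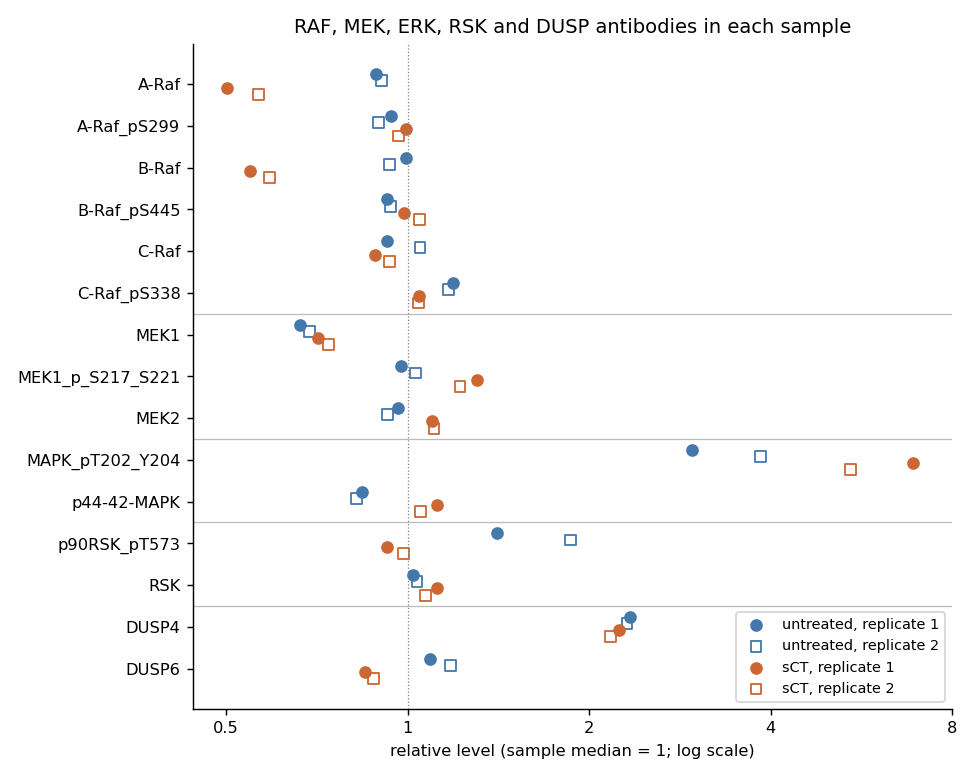
Relative level (log axis, sample median of 1) of the 15 antibodies in the 2 untreated and 2 sCT-treated samples, ordered from RAF at the top to the DUSP phosphatases at the bottom. Total A-Raf and B-Raf lie at 0.502 to 0.589 in sCT-treated cells against 0.885 to 0.995 in untreated cells, while phosphorylated ERK lies at 5.42 and 6.88 against 2.96 and 3.85.

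Of the RAF kinases, total A-Raf and B-Raf fell by similar amounts, and total C-Raf did not pass the test. Other scalings moved this, with A-Raf at -0.27 and no longer called after quantile normalization (adjusted p = 0.0850) against -0.47 for B-Raf, and C-Raf called lower after relative loading control centring (-0.29, adjusted p = 0.0366). Total A-Raf, the isoform with the weakest kinase activity, was at 0.885 and 0.906 in untreated cells and at 0.502 and 0.566 after sCT. Both treated samples lay far below both untreated samples. It fell by 0.75 on the log2 scale (SE 0.07, adjusted p = 0.00122), to 0.596 of the untreated level. Total B-Raf, the isoform with the strongest activity towards MEK, was at 0.995 and 0.934 in untreated cells and at 0.547 and 0.589 after sCT. It fell by 0.76 (SE 0.06, adjusted p = 0.000739), much as A-Raf did. Total C-Raf, the ubiquitous isoform, was at 0.923 and 1.05 in untreated cells and at 0.881 and 0.933 after sCT. It was the only one of the 15 for which the groups overlapped, with a log2 fold change of -0.12 (95% confidence interval -0.32 to 0.09, adjusted p = 0.242). Within each sample, A-Raf relative to C-Raf changed by -0.63 log2 units and B-Raf relative to C-Raf by -0.65, without overlap between groups, while A-Raf relative to B-Raf changed by 0.02 and overlapped. These contrasts of isoforms were chosen after the values were seen and are given without a test.

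The panel held one phosphorylated site for each RAF isoform, and the 3 sites are counterparts of each other in the stretch just before the kinase domain. A-Raf pS299 (A-Raf_pS299 on the panel) was at 0.938 and 0.893 in untreated cells and at 0.992 and 0.965 after sCT. B-Raf pS445, a site that is phosphorylated without stimulation in many cells, was at 0.924 and 0.936 and then at 0.987 and 1.05. Both were slightly higher in both treated samples, and neither passed the test, with log2 fold changes of 0.10 (95% confidence interval -0.03 to 0.23, adjusted p = 0.154) and 0.13 (-0.01 to 0.26, adjusted p = 0.0903). C-Raf pS338, which p21-activated kinases can phosphorylate and which goes with C-Raf activity, was at 1.19 and 1.17 in untreated cells and at 1.05 and 1.04 after sCT. It fell by 0.17 (SE 0.04, adjusted p = 0.0234), a small change between very tight replicates. The call did not survive the loss of any of the 4 samples, with adjusted p between 0.0642 and 0.113.

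The 3 antibodies to MEK, the kinase between RAF and ERK, gave higher levels in both treated samples, and 2 of them passed. Over the panel 43.0% of antibodies were higher without overlap between groups, and 21.4% were called higher. MEK1 phosphorylated at S217/S221 (MEK1_p_S217_S221), the activation loop sites that RAF phosphorylates, was at 0.975 and 1.03 in untreated cells and at 1.30 and 1.22 after sCT. It rose by 0.33 log2 units (SE 0.06, adjusted p = 0.00863), to 1.26 times the untreated level. Total MEK1 was at 0.662 and 0.687 and then at 0.711 and 0.740, with a log2 fold change of 0.10 that did not pass (95% confidence interval -0.03 to 0.23, adjusted p = 0.132). Total MEK2, its close paralog, was at 0.964 and 0.926 and then at 1.10 and 1.11. MEK2 rose by 0.22 (SE 0.05, adjusted p = 0.0141), so that of the 2 total antibodies only that to MEK2 passed, and the change of MEK2 relative to MEK1 within samples was 0.12. The calls were fragile. That of the MEK1 site was lost without sCT replicate 1 (adjusted p = 0.0603), and that of MEK2 without untreated replicate 2 or without either sCT replicate (adjusted p = 0.0602 to 0.0827).

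Phosphorylated ERK had the largest log2 fold change of the 15 antibodies at the deposited scaling with all 4 samples, though not after relative loading control centring (0.68 against -0.93 for B-Raf), after quantile normalization (0.18 against 0.96 for MEK1), without untreated replicate 1 (0.67 against -0.97 for the RSK site) or without sCT replicate 1 (0.68 against -0.72 for the RSK site). The antibody to ERK phosphorylated at T202/Y204 (MAPK_pT202_Y204), the pair of residues that MEK phosphorylates to activate it, was at 2.96 and 3.85 in untreated cells and at 6.88 and 5.42 after sCT. The lower treated sample was still above the higher untreated one, but replicates differed by 1.30-fold in untreated and 1.27-fold in treated cells, the 20th and 6th widest gaps on the panel. Phosphorylated ERK rose by 0.86 log2 units (SE 0.17, 95% confidence interval 0.40 to 1.31, adjusted p = 0.0132), to 1.81 times the untreated level. Total ERK1/2, listed as p44-42-MAPK, was at 0.840 and 0.822 in untreated cells and at 1.12 and 1.05 after sCT. It rose by 0.38 (SE 0.05, adjusted p = 0.00378), and unlike its phosphorylated form it kept its call with any 1 sample left out (log2 fold change 0.34 to 0.43). The phosphorylated form did not pass when untreated replicate 1 was dropped (0.67, adjusted p = 0.0549) or when sCT replicate 1 was (0.68, adjusted p = 0.0771). It also did not pass with the replicate number as a block (adjusted p = 0.0593).

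RSK, a kinase that ERK binds and activates, was lower at its ERK site while ERK itself was higher at its activating sites. p90RSK phosphorylated at T573, the site in its C-terminal kinase domain that ERK phosphorylates, was at 1.41 and 1.86 in untreated cells and at 0.924 and 0.984 after sCT. Both treated samples were below both untreated samples, which themselves differed by 1.32-fold, the 17th widest gap on the panel. The site fell by 0.76 log2 units (SE 0.14, 95% confidence interval -1.14 to -0.39, adjusted p = 0.0104), to 0.589 of the untreated level. Total RSK was at 1.02 and 1.04 and then at 1.12 and 1.07, a log2 fold change of 0.09 that did not pass (95% confidence interval -0.03 to 0.22, adjusted p = 0.161). The log2 fold change of the site was -0.97 without untreated replicate 1 and -0.56 without untreated replicate 2, both called. It was -0.72 and -0.81 without sCT replicate 1 and 2, with the call lost (adjusted p = 0.0788 and 0.0605).

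The phosphatases were measured as total proteins only. DUSP6, a cytoplasmic phosphatase with a strong preference for ERK and itself a product of ERK signalling, was at 1.09 and 1.18 in untreated cells and at 0.851 and 0.877 after sCT. DUSP6 fell by 0.39 log2 units (SE 0.06, adjusted p = 0.00538), to 0.763 of the untreated level. DUSP4, a nuclear phosphatase that acts on ERK and JNK, was at 2.33 and 2.31 and then at 2.24 and 2.17. Its treated samples were both lower, by a log2 fold change of -0.07 that did not pass (95% confidence interval -0.19 to 0.04, adjusted p = 0.201). DUSP6 lost its call without sCT replicate 1 (adjusted p = 0.0503).

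**Figure D2:**
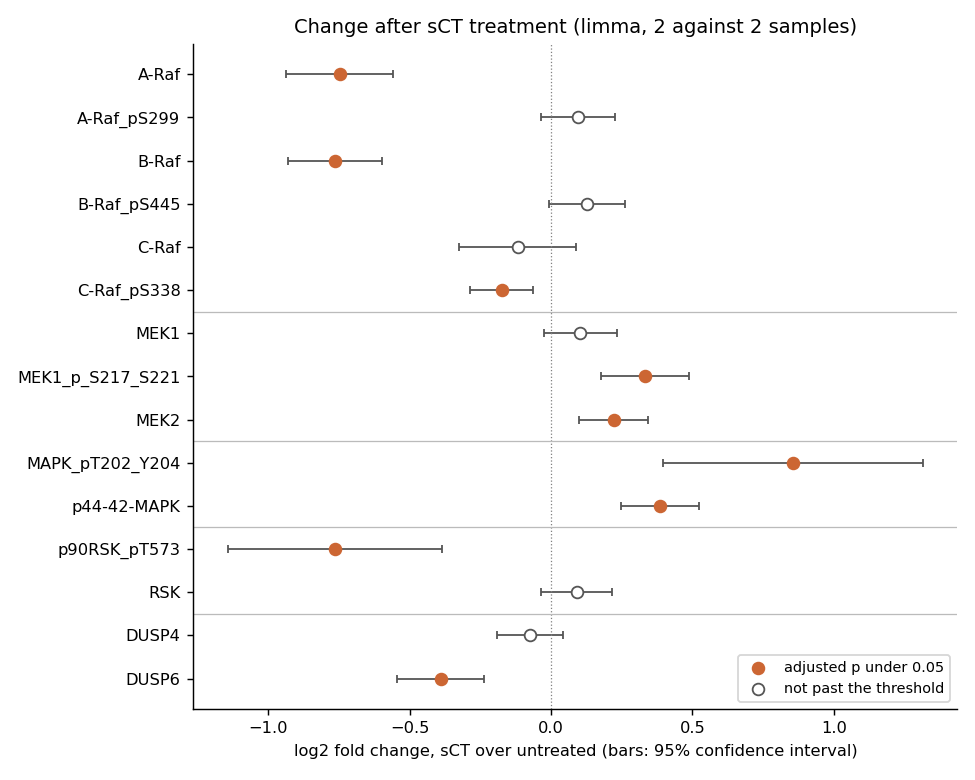
Log2 fold change of each antibody after sCT with its 95% confidence interval from limma (2 untreated and 2 sCT-treated samples). Filled points passed an adjusted p of 0.05. The largest changes are those of phosphorylated ERK (0.86), B-Raf (-0.76), phosphorylated RSK (-0.76) and A-Raf (-0.75).

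Of the 6 phosphorylated sites, 2 rose and 2 fell, and of the 9 total proteins, 2 rose and 3 fell. Over the panel 10.2% of the 88 sites rose and 47.7% fell, and among total proteins 24.1% rose and 30.1% fell. The MEK1 and ERK sites were thus 2 of 9 sites called higher on the whole panel. Whether a site moved apart from its protein was asked by taking log2 site minus log2 total within each sample, a difference that scaling a whole sample by a constant does not move. For A-Raf it was 0.08 and -0.02 in untreated cells and 0.98 and 0.77 after sCT, a change of 0.84. For B-Raf it went from -0.11 and 0.00 to 0.85 and 0.83, a change of 0.89. In both isoforms the total fell and the site did not pass the test, and the site relative to the total was 1.79-fold and 1.85-fold higher. For C-Raf it was 0.36 and 0.16 and then 0.25 and 0.16, a change of -0.06 with overlapping groups.

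The kinases below RAF gave a rise relative to the total for MEK1 and ERK and a drop for RSK in these samples. For MEK1 the difference was 0.56 and 0.58 in untreated cells and 0.88 and 0.72 after sCT, a change of 0.23. For ERK it was 1.82 and 2.23 and then 2.62 and 2.37, a change of 0.47, against 0.86 for the site alone and 0.38 for total ERK1/2. For RSK it was 0.46 and 0.85 and then -0.28 and -0.12, a change of -0.85. Groups did not overlap in 5 of the 6 pairs. The exact permutation test, two-sided, gave p = 0.33 for each of these 5, the smallest it can give, and p = 1 for C-Raf (adjusted p = 0.40 and 1 over the 6 pairs), so no pair could pass. Quantile normalization, described with the other scalings, turned the sign for MEK1 (-0.52) and ERK (-0.53) and kept it for the other 4 pairs. Among the 47 other pairs of site and total that share a name on this panel, 43 did not overlap, with 20 changes upward and 27 downward and a median of -0.11. The 6 pairs had 4 upward and 2 downward and a median of 0.35.

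**Figure D3:**
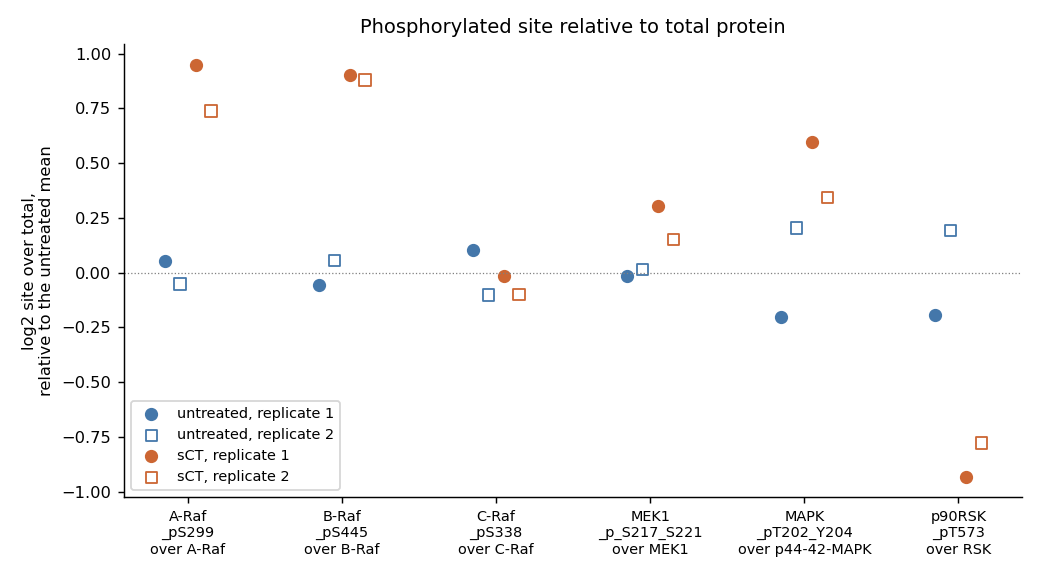
Log2 site minus log2 total for the 6 proteins with both antibodies, in each sample, relative to the mean of the untreated samples. The treated samples lie above the untreated ones for A-Raf, B-Raf, MEK1 and ERK (changes of 0.84, 0.89, 0.23 and 0.47), below them for RSK (-0.85), and among them for C-Raf.

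The scaling between samples mattered for the size and for some calls. Of 5 loading control antibodies, 3 passed as higher after sCT, with log2 fold changes of 0.57 for GAPDH, 0.33 for Cyclophilin-F and 0.17 for b-Actin, while Vinculin was at 0.04 and Histone-H3 at -0.15 (adjusted p = 0.557 and 0.0812). Centring each sample on these 5, each taken relative to its own mean, moved every antibody by -0.17. It left 2 cascade antibodies higher and 7 lower, where 6.36% of the panel was higher and 41.8% lower. Phosphorylated ERK (0.68, adjusted p = 0.00716) and total ERK1/2 (0.21, adjusted p = 0.0441) stayed higher, while the MEK1 site (0.16, adjusted p = 0.101) and MEK2 (0.05, adjusted p = 0.614) lost their calls and C-Raf (-0.29, adjusted p = 0.0366) and DUSP4 (-0.24, adjusted p = 0.0269) gained one as lower.

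Quantile normalization, which forces all samples onto one distribution, called 5 cascade antibodies higher and 4 lower, where 23.4% of the panel was higher and 26.1% lower. Phosphorylated ERK was at 0.18 (adjusted p = 0.323) under it. It held the highest level of the panel in 3 of the 4 samples and the second highest in untreated replicate 1, and this scaling gives antibodies of the same rank the same value. Total MEK1 went the other way, to 0.96 (adjusted p = 0.00153). Its rank from the highest level was 433 and 432 in untreated cells and 361 and 359 after sCT, although its deposited levels moved little. A-Raf pS299 passed at 0.20 (adjusted p = 0.0377), and A-Raf was at -0.27 (adjusted p = 0.0850). B-Raf (-0.47), the RSK site (-0.63), DUSP6 (-0.33), C-Raf pS338 (-0.17), MEK2 (0.25), the MEK1 site (0.44) and total ERK1/2 (0.71) kept direction and call. Without sCT replicate 1, 3 of the 15 passed, namely A-Raf, B-Raf and total ERK1/2, where 33.6% of the panel did. The 6 that lost their calls there kept their direction, with log2 fold changes of -0.18 for C-Raf pS338, 0.28 for the MEK1 site, 0.23 for MEK2, 0.68 for the ERK site, -0.72 for the RSK site and -0.37 for DUSP6.

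**Figure D4:**
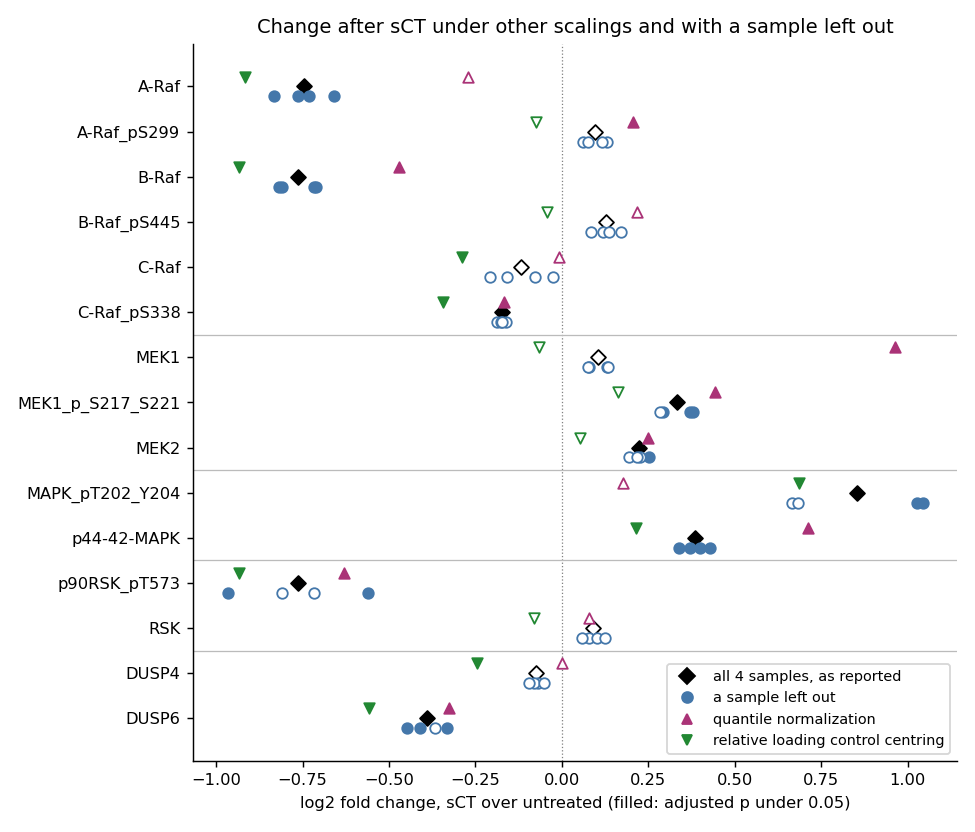
Log2 fold change of the 15 antibodies with all 4 samples (diamonds), with each sample left out (circles), after quantile normalization (triangles up) and after relative loading control centring (triangles down), filled where the adjusted p is under 0.05. A-Raf and B-Raf stay at -0.66 or lower with any sample left out, and phosphorylated ERK ranges from 0.67 to 1.04 there and is at 0.18 after quantile normalization.

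Proteins around the cascade were grouped into 5 lists of 51 antibodies in all, of which 32 passed, 9 higher and 23 lower, where 55.0% of the panel passed, 21.4% higher and 33.6% lower. Among 13 antibodies to receptors, adaptors and RAS, 1 rose and 6 fell, with a median log2 fold change of -0.07 against 0.02 over the panel. The receptors in this list were EGFR, HER2 and HER3 only. Receptors outside it went both ways, with IR-b higher (0.59, adjusted p = 0.000603) and Axl lower (-0.65, adjusted p = 0.000432), for example. The falls were led by Gab2, a docking protein that recruits SHP2 (-1.58, adjusted p = 0.000351), the receptor HER2 (-1.54, adjusted p = 0.000340) and SHP2, a phosphatase needed for RAS activation by many receptors (-1.10, adjusted p = 0.000146). SHP2 was at 1.47 and 1.51 in untreated cells and at 0.686 and 0.704 after sCT. Shc phosphorylated at Y317, a docking site for the RAS activator complex, also fell (-0.82, adjusted p = 0.00103). EGFR (-0.07, adjusted p = 0.208) and EGFR pY1173 (0.07, adjusted p = 0.212) did not pass, HER2 pY1248 fell by 0.28 (adjusted p = 0.0135) and HER3 pY1289 rose by 0.19 (adjusted p = 0.0234). Total HER3 fell by 0.53 (adjusted p = 0.00105). Relative to their totals within samples, HER2 pY1248 changed by 1.26, HER3 pY1289 by 0.73 and EGFR pY1173 by 0.15, all upward. N-Ras, the one RAS protein measured, was at 0.983 and 0.984 and then at 1.06 and 1.08 (0.13, adjusted p = 0.0598).

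The list of RAF partners held 5 antibodies, of which those to PEA-15 concern a protein that holds ERK rather than RAF. Of the 5, 3 rose, where 21.4% of the panel did. They were the 14-3-3 proteins beta, epsilon and zeta, which bind phosphorylated RAF, with log2 fold changes of 0.22, 0.20 and 0.29 (adjusted p = 0.0381, 0.0242 and 0.0101). With the replicate number as a block 1 of the 5 passed, zeta, where 21.6% of the panel was called higher. With relative loading control centring none of the 5 passed, where 6.36% of the panel was called higher. Leaving out untreated replicate 2 or either sCT replicate also lost calls here, as it did over the panel. PEA-15, which holds ERK in the cytoplasm, was at 0.20 (adjusted p = 0.0720), and its pS116 form at 0.10 (adjusted p = 0.213).

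Among 21 antibodies to ERK and RSK substrates and induced proteins, 1 rose and 12 fell, with a median of -0.26. Over the panel 21.4% rose and 33.6% fell. The list held 6 sites that RSK can phosphorylate, each with other known kinases too, and all 6 fell, where 47.7% of the 88 sites on the panel did. These 6 were singled out within the list, with earlier results known, and are given as values only. Sites elsewhere on the panel that RSK may phosphorylate were not collected, so the count is no measure of RSK output. CREB pS133 was at 1.14 and 1.23 and then at 0.273 and 0.306 (-2.04, adjusted p = 0.000141), and EphA2 pS897 at 2.06 and 2.17 and then at 0.586 and 0.620 (-1.81, adjusted p = 0.000113). GSK3 pS21/S9 fell by 1.65, S6 pS235/S236 by 1.42, BAD pS112 by 1.39 and YB1 pS102 by 0.28 (adjusted p = 0.000141, 0.000303, 0.000217 and 0.00674). Total EphA2 fell too, by 0.86 (adjusted p = 0.000856). Site minus total changed by -0.95 for EphA2, -2.33 for CREB, -1.86 for GSK3 and -1.37 for S6. The GSK3 value was taken against the total antibody GSK-3a-b (0.22, adjusted p = 0.0585). The other total antibody, GSK-3B, fell by 0.59 (adjusted p = 0.00210), so the drop relative to it was smaller. Of the ERK sites on transcription factors, Elk1 pS383 was at 1.09 and 1.13 and then at 0.930 and 0.920 (-0.26, adjusted p = 0.00863), and ER-a pS118 was at -0.01 (adjusted p = 0.848). Total FOXO3 fell by 1.74 (adjusted p = 0.000141) and FoxO3a pS318/S321 by only 0.22 (adjusted p = 0.0295), so this site rose relative to its total. Mnk1, a kinase that ERK activates, fell by 1.58 (adjusted p = 0.000169). The site that Mnk1 phosphorylates, eIF4E pS209, was at -0.12 (adjusted p = 0.0936). Of the induced proteins, COX2 rose by 1.69 (adjusted p = 0.000637) and Mcl-1 fell by 0.38 (adjusted p = 0.00231). c-Myc (-0.09), Cyclin-D1 (0.08), Ets-1 (0.15), Bim (0.09) and MIG6 (0.04) did not pass (adjusted p = 0.139 to 0.811).

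Among 9 antibodies to the parallel MAP kinases, 3 rose and 3 fell, where 21.4% of the panel rose and 33.6% fell. JNK pT183/Y185 was at 0.863 and 0.862 and then at 1.02 and 0.995 and rose by 0.22 (adjusted p = 0.0117), total JNK2 was at 0.36 (adjusted p = 0.0523), and total ERK5 rose by 0.24 (adjusted p = 0.00918). p38 pT180/Y182 was at 1.26 and 1.40 and then at 0.928 and 0.875 and fell by 0.56 (adjusted p = 0.00332), while of 2 antibodies to total p38, p38-MAPK rose by 0.20 (adjusted p = 0.0188) and p38-a was at 0.15 (adjusted p = 0.0586). HSP27 pS82, a site downstream of p38, fell by 0.97 (adjusted p = 0.00250) and c-Jun pS73, a JNK site, by 1.26 (adjusted p = 0.00640). All 4 antibodies of the cAMP and PKA list passed, where 55.0% of the panel did. They were CREB pS133, which also stands among the substrates, VASP (-0.51, adjusted p = 0.00312), PKA-a (-0.33, adjusted p = 0.00603) and total CREB, which rose by 0.30 (adjusted p = 0.0125). The rises in these lists were mostly small. With relative loading control centring, 1 of the 51 antibodies, COX2, was called higher in place of 9. The share of the whole panel called higher went from 21.4% to 6.36% under the same centring. The lists are given by their counts and medians, and no list was tested against the panel.

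**Figure D5:**
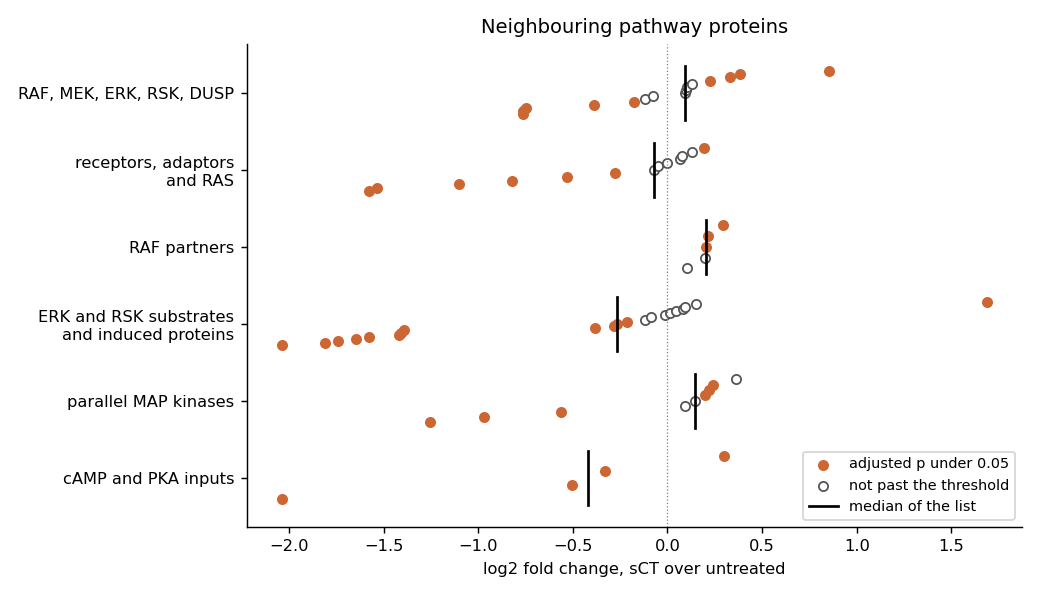
Log2 fold change after sCT for each antibody of the cascade and of 5 neighbouring lists, filled where the adjusted p is under 0.05, with a black bar at each list's median. In the list of substrates and induced proteins 12 of 21 points passed as lower and 1, COX2, as higher. Over the panel 33.6% passed as lower and 21.4% as higher. The RAF partners, a list that also holds PEA-15, lie between 0.10 and 0.29.

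The antibodies closest in pattern to the MEK1 and ERK sites were found by the Euclidean distance between log2 levels over the 4 samples, each centred on its own mean. Closest to the MEK1 site were LC3A-B (distance 0.05), Notch3 (0.06), MIF (0.06), Atg5 (0.07) and BiP-GRP78 (0.07), all with log2 fold changes of 0.33 to 0.38. Closest to phosphorylated ERK were MCT4 (0.29), ASNS (0.33), MERIT40 (0.39), Src pY527 (0.42) and B7-H3 (0.44). Their log2 fold changes were 0.58 to 0.73, against 0.86 for phosphorylated ERK. With 4 samples in 2 groups such a distance describes mostly the fold change and says nothing of shared control.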

How the data were processed

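Per the paper's methods, lysates were serially diluted, printed on nitrocellulose slides, probed with antibodies, developed with DAB and quantified as spot intensities with Array-Pro Analyzer. The authors deposited 1 linear ratio per antibody and sample, a relative level with a median of 1 in each sample. The steps from spot intensity to level are not given in the sources used here, signal over background is unknown, and the number of samples limits the precision.

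The log2 of each level was taken, with no pseudocount, and all 440 antibodies were fitted with limma 3.58.1 (lmFit and eBayes, no covariates, 2 residual and 2.59 prior degrees of freedom) in R 4.3.3, two-sided, with Benjamini-Hochberg adjustment. Confidence intervals are limma's at 95%, unadjusted. Site minus total was compared with an exact permutation test (scipy 1.17.1). The limma step was run on simulated data with fewer changed antibodies, independent samples and larger changes than those of C-Raf pS338 or MEK2. That run does not bear on such small calls. The 15 antibodies, the lists and the tests were chosen with earlier results of these data known. Outside the 15, the rule named up to 3 antibodies per list and direction with the largest change, preset sites, and the 5 antibodies nearest to each of 2 sites. Shc pY317, N-Ras, EGFR, total HER3, PEA-15, total EphA2, GSK3, Elk1, ER-a, Mnk1, JNK2, p38-a and eIF4E pS209 were named with their values in view. So were FoxO3a pS318/S321, total GSK-3B, IR-b and Axl. The same holds for the induced proteins other than COX2, the loading controls and the site minus total values outside the cascade. The alternatives were linear levels, median centring, quantile normalization, relative loading control centring (5 antibodies), trend and robust estimation, an unequal-variance test on linear levels, a filter on the lowest 10% by mean level, each sample left out, and the replicate number as a block.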

Additional observations from a re-analysis of the deposited data

How the results depend on the processing

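Of the 15 cascade antibodies, 9 passed in limma, 4 higher and 5 lower. With each sample left out there were 3 to 7, with 1 to 3 higher and 2 to 4 lower, the fewest without sCT replicate 1. Without sCT replicate 2 there were 3 lower. Over the panel 33.6% to 48.6% passed with a sample left out. Fewer samples leave fewer degrees of freedom. The unequal-variance test on linear levels called 0 of the 15 after adjustment, 0 higher and 0 lower, against 4 at an unadjusted p under 0.05, and 0 of the 51 neighbouring antibodies, 0 higher and 0 lower, against 25 unadjusted. Over the panel the same test called 1 of 440 after adjustment and 155 unadjusted. Relative loading control centring left 2 of the 15 higher, against 6.36% of the panel. Leaving out the lowest 10% of antibodies kept 12 of the 15 and left 3 lower (25.0%), against 27.8% of the panel. That filter uses the mean level over all 4 samples, and A-Raf and B-Raf failed it with untreated levels above its limit of 0.772, so their fall itself removed them and the count says nothing of stability. The neighbouring antibodies, 32 called (9 higher, 23 lower), gave 20 to 30 with a sample left out, with 1 to 8 higher and 19 to 22 lower. With a sample left out its group holds 1 sample, and fewer antibodies passed over the panel too. The smaller counts are therefore not read as instability of these proteins in particular. Relative loading control centring left 1 of the neighbouring antibodies higher, against 6.36% of the panel. Leaving out the lowest 10%, by the same filter, left 14 lower among those kept, against 27.8% of the panel.

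Relative loading control centring turned the sign of 4 uncalled antibodies, A-Raf pS299 (-0.074), B-Raf pS445 (-0.043), MEK1 (-0.066) and RSK (-0.079). For site relative to total, quantile normalization gave 0.48 for A-Raf, 0.69 for B-Raf, -0.52 for MEK1 and -0.53 for ERK, the last 2 with the sign turned. With a sample left out the values ran from 0.74 to 0.95 for A-Raf, 0.84 to 0.95 for B-Raf, -0.16 to 0.045 for C-Raf (0.045 without untreated replicate 1), 0.15 to 0.30 for MEK1, 0.27 to 0.67 for ERK and -1.05 to -0.66 for RSK. The replicate numbers are not stated to pair the samples, and the deviations of same-numbered samples correlated with r = 0.586 over antibodies. With the replicate number as a block, 8 of the 15 passed, against 54.1% of the panel, and phosphorylated ERK lost its call (adjusted p = 0.0593). Median centring and trend and robust estimation changed no call among the 15. With limma on linear levels 10 of the 15 passed, 4 higher and 6 lower, against 57.3% of the panel, 23.6% higher and 33.6% lower. The call gained there was DUSP4, as lower (adjusted p = 0.0482).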
